A study of Mus musculus with 6 samples.

Results

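Endothelin, histamine, bradykinin, the tachykinins and angiotensin II act on airways through G protein-coupled receptors, and the mRNAs of these receptors, with that of the peptide endothelin-1, were examined in bronchial smooth muscle cells (BSMCs) of mice with allergic airway inflammation. The genes were chosen by symbol as a family, and 9 of the 10 in that family were found among the 20239 genes that the array annotation names. They were Edn1, Ednrb, Hrh1, Hrh2, Bdkrb1, Bdkrb2, Tacr1, Tacr2 and Agtr1a, each with 1 probe set. Ednra, the endothelin A receptor, has no entry in the probe set annotation used and was not analysed here.

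The OVA group held 3 samples from mice sensitized by intraperitoneal injection of 50 µg ovalbumin (OVA) in the adjuvant Imject Alum on days 0 and 7. The PBS group held 3 samples from control mice that received PBS saline in place of OVA at sensitization. The Methods state no alum for these controls. Both groups then inhaled nebulized OVA on 5 days, from day 14 to day 18, and the cells were taken on day 19, so the groups differed in sensitization and shared the challenge. All mice were double transgenic αSMA-hrGFP;NG2-DsRed animals of the C57BL/6J strain, in which the α-smooth muscle actin promoter drives hrGFP and the NG2 promoter drives DsRed. The sort kept CD31-CD45-hrGFP+DsRed- cells and the RNA of several mice was pooled for each array, while the sample labels speak of single animals and microdissected muscle and describe OVA injection throughout. Samples were grouped by their titles (control or asthma animal), and the mice are described as adult, with no age in weeks given in the sources used here.

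The study left out 1 OVA array as a technical outlier without naming it. On the first principal component, which held 61.2% of the variance of the deposited values, OVA 2 lay at 67.5 and the other 5 arrays between -23.5 and -9.3, so OVA 2 was taken as that array. Its levels were compressed, with quartiles of 5.71 and 7.95, against 5.25 to 5.35 and 8.24 to 8.29 on the other arrays, and 45.7% of all genes lay above and 37.7% below every PBS array on it. OVA 1 and OVA 3 were therefore set against the 3 PBS arrays, and values with OVA 2 are given beside those of each of the 9 genes and of the related genes described in full. Checked against the smooth muscle label, 10 smooth muscle markers had mean levels of 11.01, 10.32 and 11.30 on OVA 1, OVA 2 and OVA 3 and 11.05, 9.95 and 10.59 on PBS 1, PBS 2 and PBS 3, above the upper quartile of each array. Means over 10 fibroblast markers were 10.57, 10.80 and 10.39 on the OVA arrays and 10.41, 10.87 and 10.64 on the PBS arrays. They stood above the smooth muscle mean on OVA 2, PBS 2 and PBS 3. For 10 vascular smooth muscle and pericyte markers the means were 9.13, 8.58 and 9.41, and 9.45, 8.87 and 9.18, also above the upper quartile. Cspg4, the NG2 gene, had levels of 9.08, 8.90 and 9.54, and 9.63, 8.81 and 9.07. These levels do not measure cell shares. Markers of cells that the sort should have removed were also measured above the lower quartile, with means over 12 leukocyte markers of 8.35, 6.80 and 8.73 on the OVA arrays and 7.24, 8.22 and 8.20 on the PBS arrays. Leukocyte markers had a median log2 fold change of 0.67 (0.34 without PBS 1, 0.10 with OVA 2) and smooth muscle markers one of 0.62 (0.29 without PBS 2, 0.34 with OVA 2). In such sorted pools, fewer cells of a type and less RNA per cell cannot be told apart.

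As background, endothelin-1 is a vasoactive peptide made mainly by endothelium and also by airway epithelium, cut from its precursor by endothelin converting enzymes, and it contracts smooth muscle through the endothelin A and B receptors. Histamine from mast cells contracts airway muscle through H1 receptors, whereas H2 receptors couple to Gs and raise cAMP. Bradykinin acts on the constitutive B2 receptor, its des-Arg metabolites act on the inducible B1 receptor, and substance P and neurokinin A from airway nerves act on the NK1 and NK2 receptors. Most of these receptors signal through Gq and phospholipase C to calcium release and contraction.

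Among the 9 genes, Edn1 and Bdkrb2 had lower levels in OVA samples at an unadjusted p under 0.05, and the other 7 did not reach it. Neither Edn1 nor Bdkrb2, nor any of the other genes, passed the false discovery rate of 0.25 used in the study (0 of 9, where 0.0395% of all genes tested passed). The 2 genes at an unadjusted p under 0.05 stand beside 9.31% of all genes at that cutoff, and 4.78% that were lower. OVA 1 and OVA 3 lay outside the range of the PBS arrays for 4 of the 9 genes. These were Edn1, Bdkrb2 and Tacr1, which were lower (16.8% of all genes were), and Hrh2, which was higher (11.9% of all genes were). The median log2 fold change of the 9 genes was -0.07, against -0.02 over all genes tested. With OVA 2 included none of the 9 passed (0.00494% of all genes did), and Edn1 alone was at an unadjusted p under 0.05 (4.54% of all genes were, 3.1% lower). All 3 OVA arrays then lay below every PBS array for Edn1 and Bdkrb2 (7.83% of all genes) and above for Hrh2 (4.16%). The smallest exact permutation p is 0.1, both for 3 arrays against 2 and for 3 against 3. Without OVA 2 the exact permutation p was 0.2 for Edn1 and 0.1 for Bdkrb2, Hrh2 and Tacr1. With OVA 2 it was 0.1 for Edn1, Bdkrb2 and Hrh2.

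**Figure D1:**
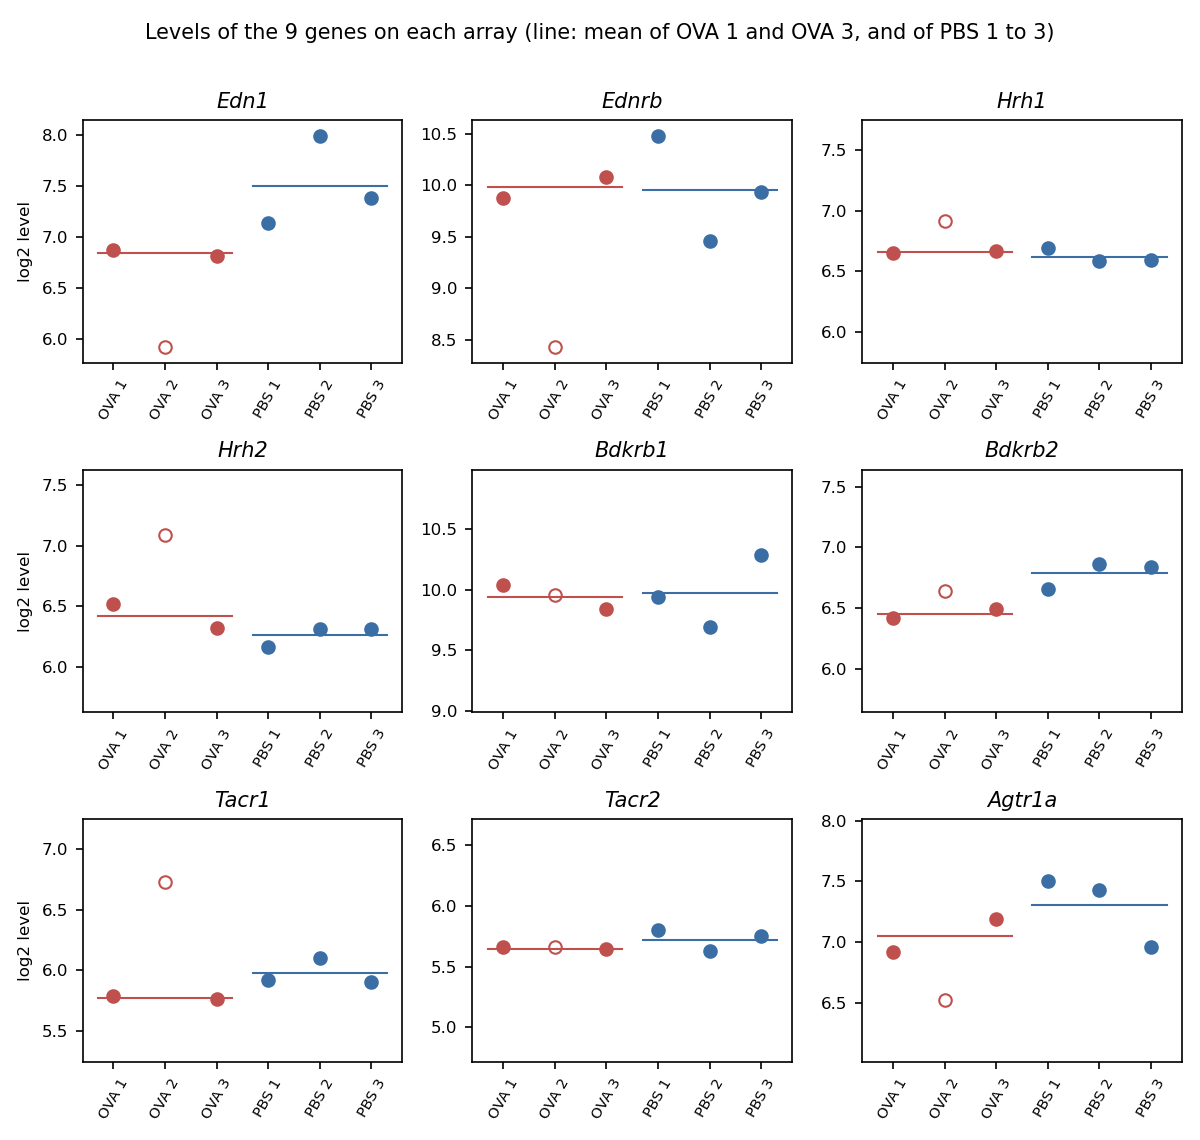
Log2 levels of the 9 genes on each array, with OVA samples in red and PBS samples in blue, OVA 2 as an open circle, and lines at the mean of OVA 1 and OVA 3 and at the mean of PBS 1 to PBS 3. Each panel has its own scale. The OVA points of Edn1 and Bdkrb2 lie below every PBS point, those of Bdkrb1 and Agtr1a overlap with them, and OVA 2 stands apart for Edn1, Ednrb, Hrh2 and Tacr1.

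The 5′ regions of Edn1 and Bdkrb2, the genes with the lower levels, are shown with letters of known control elements in capitals. They are RefSeq sequences of build GRCm38.p6 on the plus strand, with 250 bases before and 50 after the annotated start, at chr13:42301226-42301525 for Edn1 and chr12:105562922-105563221 for Bdkrb2.
Edn1: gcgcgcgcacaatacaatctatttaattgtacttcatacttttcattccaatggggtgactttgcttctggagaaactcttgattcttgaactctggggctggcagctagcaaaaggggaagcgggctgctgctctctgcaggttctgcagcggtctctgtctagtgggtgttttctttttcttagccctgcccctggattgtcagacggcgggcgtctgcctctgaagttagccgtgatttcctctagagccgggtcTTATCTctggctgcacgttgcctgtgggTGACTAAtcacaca
Bdkrb2: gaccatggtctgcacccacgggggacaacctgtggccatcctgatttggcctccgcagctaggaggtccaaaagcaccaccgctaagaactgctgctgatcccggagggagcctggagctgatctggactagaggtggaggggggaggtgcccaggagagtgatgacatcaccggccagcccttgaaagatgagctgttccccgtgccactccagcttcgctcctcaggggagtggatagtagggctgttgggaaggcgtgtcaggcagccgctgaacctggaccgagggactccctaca
The capitals in Edn1 mark TTATCT, which is AGATAA on the other strand and the core that GATA factors bind, at base 9 after the annotated start, and TGACTAA, the form of the AP-1 element known from the human endothelin-1 promoter, at base 37. Searched on both strands, AGATAA was in 11.2% of 32851 promoter windows of this length and TGACTAA in 2.35%. The consensus AP-1 letters TGACTCA (5.2% of windows) and the TATA box letters TATAAA (13.6%) were in neither sequence, and none of the 4 motifs was in that of Bdkrb2. Letters outside these windows were not searched, so a motif absent here may lie elsewhere in the promoter. The positions hold only for the annotated start used. The motifs do not overlap each other here. A match is a description of the letters, and no binding was measured. Bdkrb2 and Bdkrb1 lie next to each other on chromosome 12, with 0 protein-coding genes between them in the RefSeq annotation.

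Edn1 (Entrez 13614), the ligand, had levels of 6.87, 5.92 and 6.81 on OVA 1, OVA 2 and OVA 3, and of 7.14, 7.99 and 7.38 on PBS 1, PBS 2 and PBS 3. All OVA arrays were below all PBS arrays, and PBS 2 stood highest. Without OVA 2 the means were 6.84 ± 0.05 (SD, n = 2) in OVA samples and 7.50 ± 0.43 (SD, n = 3) in PBS samples, a log2 fold change of -0.66 (standard error 0.24, 95% confidence interval -1.25 to -0.08), which is 0.631 of the PBS level. The unadjusted p was 0.0319 and the adjusted p 0.516 (limma). With OVA 2 the difference was -0.97 on the log2 scale (standard error 0.315, limma adjusted p = 0.892). Without PBS 2 it was -0.42 (adjusted p = 0.646). The unadjusted p was above 0.05 when PBS 3 (0.0532), OVA 1 (0.0993) or OVA 3 (0.126) was left out.

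Endothelial cells, a main source of endothelin-1, carry CD31 and should have been lost in the sort. The mean of their markers was highest on the same array as Edn1. The mean level of 14 endothelial markers was 8.16, 6.97 and 8.20 on OVA 1, OVA 2 and OVA 3, and 8.22, 9.00 and 8.28 on PBS 1, PBS 2 and PBS 3. It was highest on PBS 2, as Edn1 was. Both were also lowest on OVA 2, the array with the compressed levels. The leukocyte (6.80), macrophage (6.90), epithelial (6.34) and vascular smooth muscle and pericyte (8.58) means were lowest there too. Smooth muscle (10.32) and fibroblast (10.80) means were not, and those of mast cells (5.17) and Schwann cells (5.64) were highest there. On that array 37.7% of all genes lay below every PBS array. Of the 14 markers, 12 had a negative log2 fold change, 7 lay below every PBS array on OVA 1 and OVA 3 (16.8% of all genes did), and none was at an unadjusted p under 0.05. Their median log2 fold change was -0.40, and it was -0.11 without PBS 2, which carried most of the shift, against -0.42 for Edn1 without that array. Pecam1, which encodes CD31, had levels of 8.48, 6.52 and 8.60 on the OVA arrays and 8.69, 9.44 and 8.59 on the PBS arrays. The part of endothelial RNA in the Edn1 difference was not tested.

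Ednrb (Entrez 13618), the endothelin B receptor, had levels of 9.88, 8.43 and 10.08 on the OVA arrays and 10.48, 9.46 and 9.93 on the PBS arrays, so OVA 1 and OVA 3 lay inside the PBS range. The log2 fold change was 0.03 (standard error 0.28, 95% confidence interval -0.66 to 0.71, adjusted p = 0.978 from limma), and -0.49 with OVA 2, -0.22 without PBS 2 and 0.29 without PBS 1. The interval admits a difference of 1.64-fold upwards and 0.635 of the PBS level downwards, so these arrays do not settle a direction.

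Neither histamine receptor reached an unadjusted p under 0.05. Hrh1 (Entrez 15465), the H1 receptor that mediates contraction, had levels of 6.65, 6.91 and 6.67 on the OVA arrays and 6.69, 6.58 and 6.59 on the PBS arrays. OVA 1 and OVA 3 overlapped with the PBS arrays. Hrh1 differed by 0.04 on the log2 scale (standard error 0.0828, 95% confidence interval -0.17 to 0.24, adjusted p = 0.906), so the interval leaves out a change beyond 1.18-fold upwards. With OVA 2 the log2 fold change was 0.12 and the interval reached 0.43. Hrh2 (Entrez 15466), the relaxant H2 receptor, had levels of 6.52, 7.09 and 6.32 on the OVA arrays and 6.16, 6.31 and 6.31 on the PBS arrays. OVA 3 stood just above the highest PBS array, and OVA 2 stood far above it on the array with the compressed levels. Hrh2 was 0.16 higher on the log2 scale (standard error 0.104, 95% confidence interval -0.09 to 0.42, adjusted p = 0.637), and 0.38 higher with OVA 2 (adjusted p = 0.892). Single arrays moved this value, to 0.06 without OVA 1 and 0.26 without OVA 3.

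Bdkrb2 (Entrez 12062), the B2 receptor, had the smallest p of the 9 genes. Its levels were 6.42, 6.64 and 6.49 on the OVA arrays and 6.66, 6.86 and 6.84 on the PBS arrays. All OVA arrays were below all PBS arrays, with OVA 2 close to PBS 1. Without OVA 2 the means were 6.45 ± 0.05 (SD, n = 2) in OVA samples and 6.79 ± 0.11 (SD, n = 3) in PBS samples, a log2 fold change of -0.34 (standard error 0.0968, 95% confidence interval -0.57 to -0.10), or 0.793 of the PBS level. The unadjusted p was 0.0129 and the adjusted p 0.48 (limma). With OVA 2 the log2 fold change was -0.27 (unadjusted p = 0.0732, adjusted p = 0.892), and without OVA 1 it was -0.30 (unadjusted p = 0.0682). Of all genes tested, the levels of Tmem14a, Ascl3, Slc22a28, Nlgn1 and Acot5 ran most like those of Bdkrb2, with Pearson correlations of 0.981, 0.977, 0.975, 0.975 and 0.973 over the 6 arrays. These 5 are the highest of 20239 genes over 6 points that share the array processing, and 11 genes exceeded 0.95. Slc22a28, Nlgn1 and Acot5 each had a log2 fold change of -0.34, Tmem14a -0.10 and Ascl3 -0.04. Bdkrb2 was picked by its p, so likeness to it can restate the group difference. Nlgn1 and Acot5 are also in the study's own gene list, chosen on these samples.

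Bdkrb1 (Entrez 12061), the B1 receptor that tissue injury and inflammation are known to induce, did not stand apart in OVA samples. Its levels were 10.04, 9.96 and 9.84 on the OVA arrays and 9.94, 9.69 and 10.29 on the PBS arrays, and the PBS arrays spread around the OVA arrays on both sides. OVA minus PBS was -0.03 on the log2 scale (standard error 0.183, 95% confidence interval -0.48 to 0.41, adjusted p = 0.963 from limma) and the same with OVA 2. It was 0.13 without PBS 3 and -0.18 without PBS 2. The interval leaves out an increase beyond 1.33-fold.

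**Figure D2:**
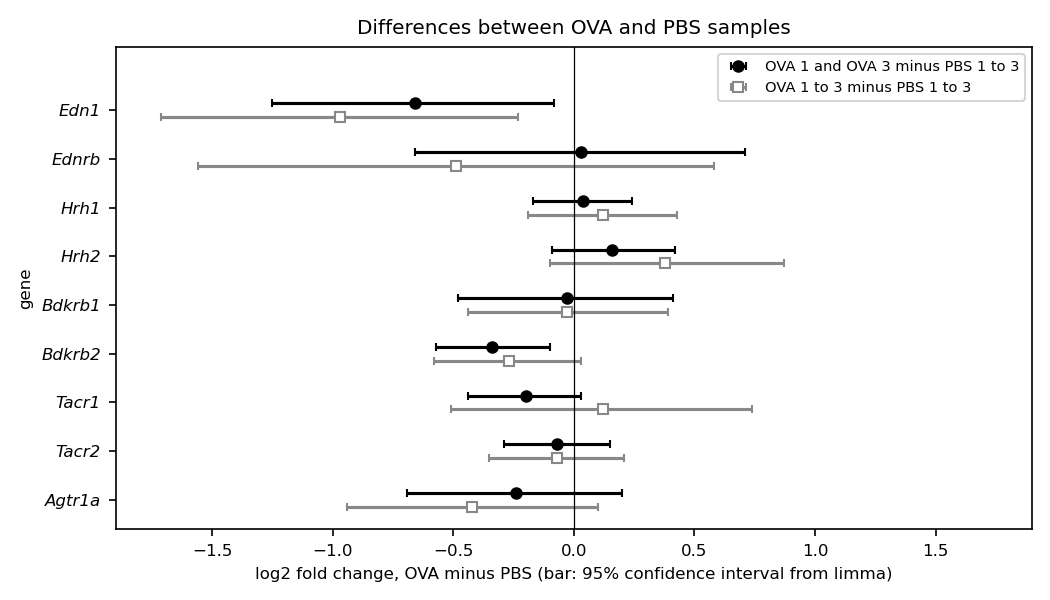
Log2 fold changes of the 9 genes, OVA minus PBS, with 95% confidence intervals from limma, for OVA 1 and OVA 3 against PBS 1 to PBS 3 (black circles) and for all 6 arrays (open squares). The intervals of Edn1 lie below 0 in both, that of Bdkrb2 only without OVA 2, and those of the other 7 genes include 0 in both.

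Tacr1 (Entrez 21336), the NK1 receptor for substance P, had levels of 5.79, 6.73 and 5.76 on the OVA arrays and 5.92, 6.10 and 5.90 on the PBS arrays. OVA 1 and OVA 3 were below every PBS array and OVA 2 above each of them. OVA minus PBS for Tacr1 was -0.20 on the log2 scale (standard error 0.0967, 95% confidence interval -0.44 to 0.03, adjusted p = 0.566) and turned to 0.12 with OVA 2 (adjusted p = 0.915). Tacr2 (Entrez 21337), the NK2 receptor through which neurokinin A contracts airway muscle, had levels of 5.66, 5.66 and 5.65 on the OVA arrays and 5.80, 5.63 and 5.75 on the PBS arrays. No OVA array was outside the PBS range, and the log2 fold change was -0.07 (standard error 0.0894, 95% confidence interval -0.29 to 0.15, adjusted p = 0.805), and the same with OVA 2. On the arrays other than OVA 2 both genes had levels not far above the lower quartile. On OVA 2 the level of Tacr2 (5.66) lay under the lower quartile of 5.71. The deposited values carry no detection call.

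Agtr1a (Entrez 11607), the main angiotensin II receptor of rodent smooth muscle, had levels of 6.92, 6.52 and 7.19 on the OVA arrays and 7.50, 7.43 and 6.96 on the PBS arrays. The groups overlapped through PBS 3. OVA minus PBS for Agtr1a was -0.24 on the log2 scale (standard error 0.184, 95% confidence interval -0.69 to 0.20, adjusted p = 0.684 from limma), and -0.42 with OVA 2 (adjusted p = 0.892). It was -0.41 without PBS 3, where the unadjusted p was 0.0229, and -0.11 without OVA 1.

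The other genes of these systems were read from lists written by role, which held 63 genes, of which 57 were named on the arrays. They cover the peptide precursors, the enzymes that make or break down the ligands, the other receptors, and the G proteins and kinases behind the receptors. None of the 57 passed the false discovery rate of 0.25. At an unadjusted p under 0.05, 2 were higher (4.53% of all genes were) and 5 lower (4.78%). The median log2 fold change of the 57 was -0.09. The 5 with lower levels were Xpnpep2, Prkce, Cpm, Edn3 and Arhgef12, and the 2 with higher levels were Aoc1 and Agtrap.

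Xpnpep2 (Entrez 170745), a membrane aminopeptidase P that cuts bradykinin, had levels of 7.02, 6.76 and 6.86 on the OVA arrays and 7.68, 7.91 and 7.75 on the PBS arrays. The groups stood well apart, with OVA 2 on the side of the OVA arrays. The difference of Xpnpep2 was -0.84 on the log2 scale (standard error 0.108, 95% confidence interval -1.10 to -0.58), or 0.559 of the PBS level. The unadjusted p was 0.000219 and the adjusted p 0.295 (limma), and with OVA 2 the log2 fold change was -0.90 (adjusted p = 0.635). Cpm (Entrez 70574), a membrane carboxypeptidase that turns bradykinin into the des-Arg ligand of the B1 receptor, had levels of 7.46, 6.69 and 7.04 on the OVA arrays and 7.77, 7.68 and 8.03 on the PBS arrays. All OVA arrays were below all PBS arrays, and the difference was -0.58 on the log2 scale (standard error 0.164, limma adjusted p = 0.48), -0.77 with OVA 2 and -0.37 without OVA 3 (unadjusted p = 0.0826). Ace, the angiotensin converting enzyme that also cuts bradykinin, and Mme, the endopeptidase neprilysin that cuts endothelin, kinins and tachykinins, had log2 fold changes of -0.40 and -0.47 (adjusted p = 0.558 and 0.535), and both lay below every PBS array on all 3 OVA arrays. Ace was at -0.62 with OVA 2 and -0.23 without PBS 2, and Mme at -0.80 without OVA 1 and -0.15 without OVA 3. Xpnpep1, the soluble relative of Xpnpep2, had 0.34 (adjusted p = 0.565), and 0.20 without PBS 1. Of the 9 measured genes of kinin precursors and breakdown, 2 were lower (4.78% of all genes were) and none higher (4.53%) at an unadjusted p under 0.05, and Kng1, which encodes the kininogen precursor, had a log2 fold change of -0.14 at levels of 3.61 to 3.98. The study's own gene list, chosen on these samples, had been read when these lists were written. It names Xpnpep2, Prkce and Aoc1, the last under its older symbol Abp1, so their place here is not independent evidence.

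Aoc1 (Entrez 76507), the diamine oxidase that breaks down extracellular histamine, had levels of 8.80, 8.18 and 9.12 on the OVA arrays and 6.93, 7.45 and 8.17 on the PBS arrays. OVA 1 and OVA 3 were clearly above the PBS arrays and OVA 2 stood level with PBS 3. The difference of Aoc1 was 1.44 on the log2 scale (standard error 0.346, 95% confidence interval 0.60 to 2.28), which is 2.71-fold, with an unadjusted p of 0.00569 and an adjusted p of 0.48 (limma). Without PBS 3 the log2 fold change was 1.77 and the adjusted p 0.246, and with OVA 2 they were 1.18 and 0.892. Hdc, which makes histamine, had a log2 fold change of 0.04 (adjusted p = 0.909), Hrh3 one of -0.06 and Hrh4 one of -0.17 (adjusted p = 0.892 and 0.728). Hrh4 ran from -0.31 without OVA 1 to -0.04 without OVA 3. The 7 measured markers of mast cells had mean levels of 4.93, 5.17 and 4.93 on the OVA arrays and 5.00, 5.04 and 5.04 on the PBS arrays, under the lower quartile of each array, and 0 of them were at an unadjusted p under 0.05.

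Edn3 (Entrez 13616), a ligand that favours the endothelin B receptor, had levels of 6.96, 6.59 and 6.90 on the OVA arrays and 8.08, 7.33 and 7.43 on the PBS arrays. All OVA arrays were below all PBS arrays, and PBS 1 stood highest. Edn3 differed by -0.69 on the log2 scale (standard error 0.225, 95% confidence interval -1.23 to -0.14, unadjusted p = 0.0219, adjusted p = 0.498 from limma), -0.80 with OVA 2 and -0.46 without PBS 1. The unadjusted p was above 0.05 without OVA 1 (0.077) or OVA 3 (0.0978). Edn2 and the converting enzyme Ece1 had log2 fold changes of -0.01 and -0.10 (adjusted p = 0.968 and 0.806). With OVA 2 Ece1 was at -0.56, and leaving out single arrays gave -0.20 without PBS 3 and 0 without OVA 1.

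**Figure D3:**
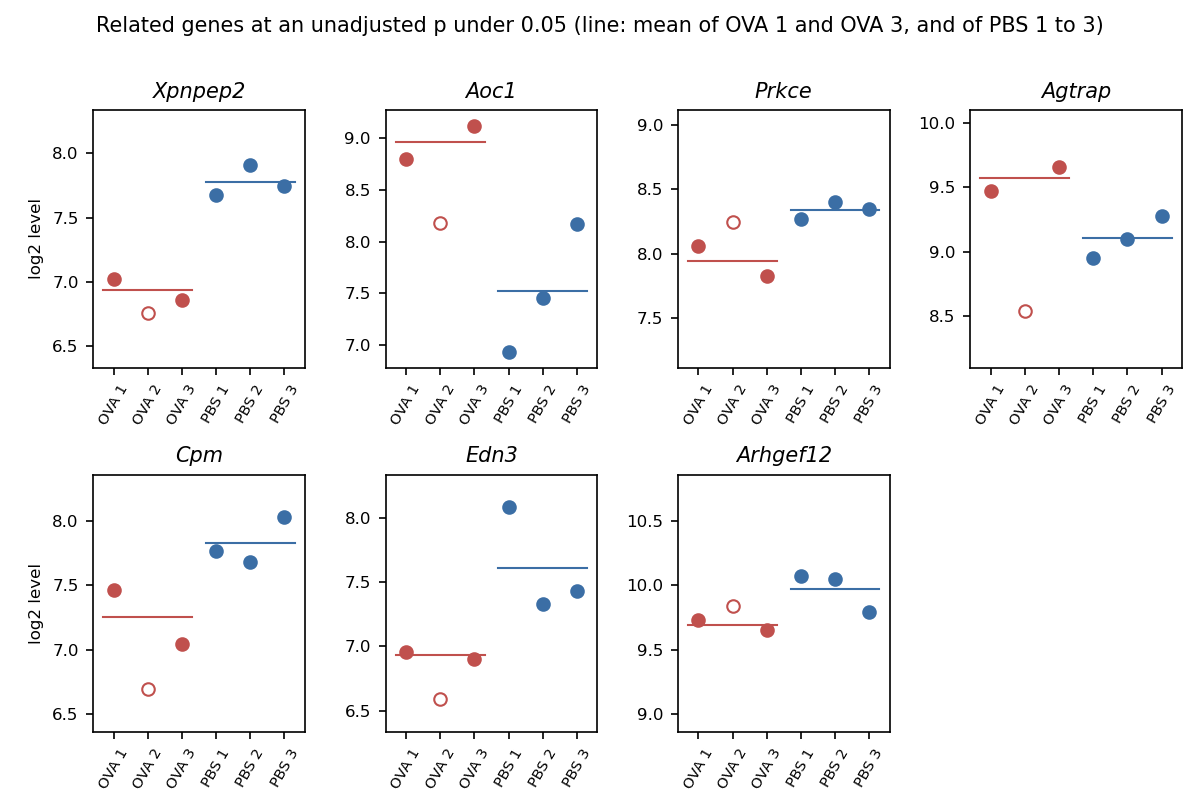
Log2 levels of the 7 related genes at an unadjusted p under 0.05 on each array, with OVA samples in red, PBS samples in blue, OVA 2 as an open circle and lines at the mean of OVA 1 and OVA 3 and at the mean of PBS 1 to PBS 3. Each panel has its own scale. For Xpnpep2, Prkce, Cpm and Edn3 the 3 OVA points lie below every PBS point, with OVA 2 close under PBS 1 for Prkce. For Agtrap OVA 2 lies below every PBS point while OVA 1 and OVA 3 lie above.

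Markers of epithelium had lower levels in OVA samples, beside the lower levels of Xpnpep2, Cpm and Edn3. The mean of 9 measured epithelial markers was 6.57, 6.34 and 6.42 on OVA 1, OVA 2 and OVA 3, and 6.71, 6.93 and 7.14 on PBS 1, PBS 2 and PBS 3. All 9 had a negative log2 fold change, with a median of -0.39, and 5 were at an unadjusted p under 0.05 and lower (4.78% of all genes were), and without OVA 3 that number was 1. Krt8 among them is in the study's gene list. Among the PBS arrays the epithelial mean was lowest on PBS 1 (6.71) and highest on PBS 3 (7.14). Edn3 was highest on PBS 1 (8.08), Xpnpep2 on PBS 2 (7.91) and Cpm, like the epithelial mean, on PBS 3 (8.03). The part of epithelial RNA in the differences of Xpnpep2, Cpm and Edn3 was not tested. Over the 5 arrays without OVA 2, the mean of the leukocyte markers given above was lowest on PBS 1 and highest on OVA 3, as Aoc1 was. On OVA 2 the 2 parted. There the leukocyte mean was the lowest of the 6 arrays (6.80), while Aoc1 (8.18) stood level with PBS 3, its highest PBS array. The part of leukocyte RNA in the difference of Aoc1 was not tested.

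**Figure D4:**
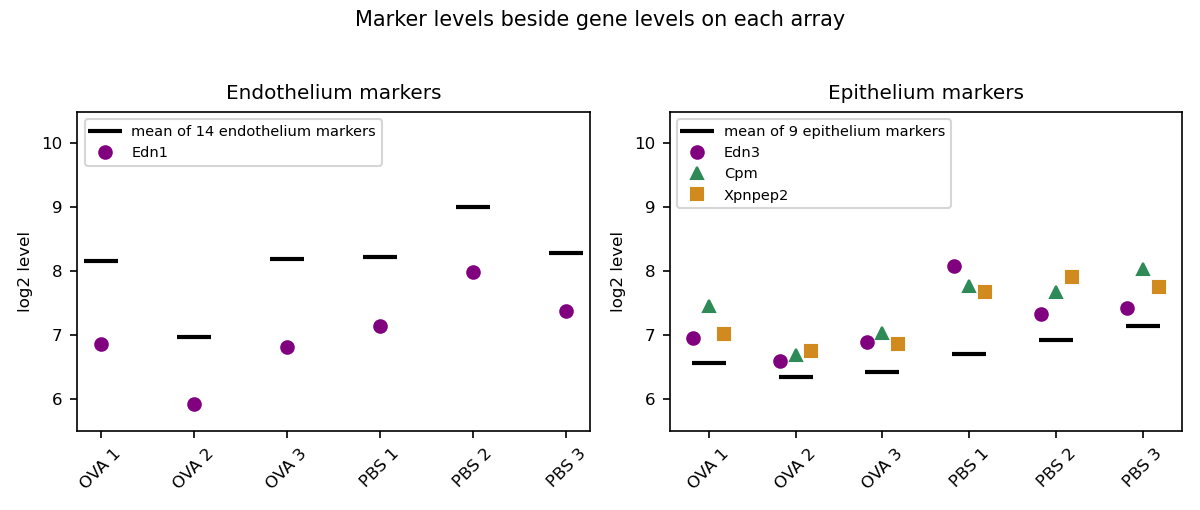
Log2 level on each array of the mean of 14 endothelial markers (bars) with Edn1 (left), and of the mean of 9 epithelial markers (bars) with Edn3, Cpm and Xpnpep2 (right). Edn1 and the endothelial mean are both highest on PBS 2. Both are lowest on OVA 2, as the epithelial mean and those of some but not all other marker lists are. The epithelial mean is lower on each OVA array than on each PBS array.

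Of the 4 measured tachykinin ligands and other receptors none was at an unadjusted p under 0.05. Tac1, which encodes the precursor of substance P and neurokinin A, had levels of 4.67, 4.75 and 4.07 on the OVA arrays and 4.69, 5.83 and 4.81 on the PBS arrays, which is a difference of -0.74 on the log2 scale (standard error 0.37, limma adjusted p = 0.577). It was -0.61 with OVA 2, -0.38 without PBS 2, the highest array, -0.43 without OVA 3 and -0.95 without PBS 1 (unadjusted p = 0.0458). These levels lie mostly under the lower quartile of the arrays. Tac4 and Tacr3 had log2 fold changes of -0.12 and -0.16 (adjusted p = 0.715 and 0.627).

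Of the 8 measured genes of the angiotensin system, Agtrap was higher at an unadjusted p under 0.05 (4.53% of all genes were) and none was lower (4.78%). With OVA 2 included none was higher and Ace was lower (limma unadjusted p = 0.0358), where 3.1% of all genes were lower. Agtrap (Entrez 11610) encodes a protein that binds the AT1 receptor and promotes its internalization. Its levels were 9.47, 8.54 and 9.66 on the OVA arrays and 8.95, 9.10 and 9.28 on the PBS arrays. The log2 fold change was 0.46 (standard error 0.125, adjusted p = 0.48 from limma) and only 0.12 with OVA 2, which lay below every PBS array (adjusted p = 0.922). Agt, which encodes angiotensinogen, had 0.15, Agtr1b -0.33 and Agtr2 -0.20 (adjusted p = 0.893, 0.543 and 0.644). Without OVA 1 Agtr1b was at -0.55 and Agtr2 at -0.36 (unadjusted p = 0.00386 and 0.044), against -0.10 and -0.03 without OVA 3, and -0.15 and 0 with OVA 2. Agt was at -0.35 with OVA 2 and -0.15 without PBS 2.

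Among 19 measured genes of Gq, G12 and calcium signaling, 2 were lower and none higher at an unadjusted p under 0.05 (4.78% and 4.53% of all genes were), with a median log2 fold change of -0.04. Prkce (Entrez 18754), which encodes protein kinase C epsilon, had levels of 8.06, 8.25 and 7.83 on the OVA arrays and 8.27, 8.40 and 8.35 on the PBS arrays, with OVA 2 close under PBS 1. The log2 fold change was -0.40 (standard error 0.104, adjusted p = 0.48), -0.29 with OVA 2 (unadjusted p = 0.0859) and -0.28 without OVA 3 (0.0553). Arhgef12 (Entrez 69632), a RhoA exchange factor that G12 and G13 activate, had -0.28 (standard error 0.114, adjusted p = 0.533), with an unadjusted p of 0.0477 that was above 0.05 with OVA 2 and without any single array other than PBS 3. Gnaq and Gna11, the α subunits that couple most of these receptors to phospholipase C, had log2 fold changes of -0.04 and -0.05 (adjusted p = 0.897 and 0.896), and -0.17 and -0.34 with OVA 2. None of the 6 measured receptor kinases and arrestins was at an unadjusted p under 0.05.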

How the data were processed

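BSMC RNA was measured on 6 Affymetrix Mouse Gene ST whole-transcript arrays, 3 of OVA samples and 3 of PBS samples. The deposited log2 values were background corrected, normalized and summarized per probe set by the authors. RMA and the affy package stand in the submitters' processing notes and oligo in the Methods. Versions and the genome build: not given in the sources used here. Values were used as deposited and ran from 1.91 to 13.05. Scanner files were not analysed here. Arrays have no read depth, and their number limits the precision. Since the pooled samples of a group are the replicates, p-values measure only the spread between these samples.

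Of 21225 probe sets, 20239 had 1 gene symbol in the platform annotation, 0 had several, and 986 were unnamed and left out. OVA minus PBS was fitted in R 4.3.3 with limma 3.58.1 (lmFit, eBayes) and statmod 1.5.0, two-sided, over all named genes, with Benjamini-Hochberg adjustment and a threshold of 0.25 as in the Methods. OVA 2 was left out, and all 6 arrays were fitted beside it. Groups do not overlap where every OVA array lies beyond every PBS array.

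The members, lists and alternatives were chosen with earlier results of these data known. Named genes were all members, related genes at an unadjusted p under 0.05 and key ligands, enzymes and receptors. Motifs were chosen after the sequences were seen. The fit was checked on simulated data. Alternatives were all 6 arrays with and without array weights, each array left out, a replicate block, a filter under the percentile 25, quantile normalization, median centring and a trended robust variance. Leaving single arrays out of the marker lists was added after seeing the data. Of the marker lists, 10 vascular smooth muscle and pericyte markers had a median log2 fold change of 0.03, 8 macrophage markers 0.46, 10 fibroblast markers -0.12 and 6 Schwann cell markers -0.07.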

Additional observations from a re-analysis of the deposited data

How the results depend on the processing

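With gene by gene array weights over all 6 arrays, a setting chosen after seeing the data because the planned REML estimate did not converge, 1 of the 9 genes passed an adjusted p of 0.25 (Bdkrb2, 0.224) and 3 of the 57 related genes did (Xpnpep2, Aoc1 and Edn3, with 0.0478, 0.174 and 0.243). That fit weighted OVA 2 at 0.0852, nearly leaving it out, and passed 563 genes in all. Under the other alternatives 0 of the 9 genes passed, and of the related genes 1 (Aoc1) without PBS 3 and 0 otherwise, so leaving out single arrays gave 0 to 1. The number of the 9 genes at an unadjusted p under 0.05 was 2, and it was 1 over all 6 arrays, 1 with the replicate block and 1 over all 6 arrays with the block, and 0 to 2 when single arrays were left out (0 without OVA 1, 1 without OVA 3). For the related genes it was 7, and 2 to 13 when single arrays were left out (11 without PBS 1, 13 without OVA 1, 2 without OVA 3). All genes passing an adjusted p of 0.25 numbered 8, and 1 over all 6 arrays, 68 without PBS 3, 38 with the replicate block and 0 without PBS 2 or without OVA 3. In the block fit without OVA 2, PBS 2 has no partner. Deviations of same-numbered samples from their group means had correlations of -0.11, -0.04 and 0.01. Those means include the outlying OVA 2, so the correlations cannot settle whether the numbers pair the samples. The cause of these changes was not tested.

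The signs of Edn1, Hrh1, Hrh2, Bdkrb2, Tacr2 and Agtr1a, and of Xpnpep2, Aoc1, Prkce, Agtrap, Cpm, Edn3 and Arhgef12, held under all 13 alternatives. Over all 6 arrays, with and without the replicate block alike, the log2 fold change turned to -0.49 for Ednrb, 0.12 for Tacr1, 0.20 for Edn2, -0.15 for Hdc, 0.08 for Hrh3, 0.09 for Tac4, 0.09 for Tacr3 and -0.35 for Agt. With array weights it turned to -0.04 for Ednrb, 0.02 for Bdkrb1 and 0.01 for Edn2, and quantile normalization gave 0.01 for Edn2. With the replicate block without OVA 2 it was -0.22 for Ednrb and -0.15 for Agt. With single arrays left out, the values ran from -0.22 to 0.29 for Ednrb, from -0.18 to 0.13 for Bdkrb1, from -0.04 to 0.02 for Edn2, from -0.01 to 0.09 for Hdc, from -0.17 to 0.05 for Hrh3, from -0.15 to 0.42 for Agt, from -0.07 to 0.01 for Gnaq and from -0.15 to 0.05 for Gna11. None of these genes had passed in the comparison without OVA 2.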
